A study of Arabidopsis thaliana with 6 samples.

Results

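The receptor-like cytoplasmic kinases of class VI (RLCK VI) are a small family of Arabidopsis thaliana protein kinases, and the genes described here are AT5G65530 and 6 related loci, AT2G18890, AT5G18910, AT5G35960, AT5G57670, RBK1 (AT5G10520) and RBK2 (AT3G05140). Of these 7 loci, 5 had at least 1 probe set assigned to that gene alone, among 13333 genes with such a probe set, and they were read by 6 of the 22746 tested probe sets. RBK1 and RBK2 were not analysed here. AT5G65530 was chosen by its measured values, because its transcript was lower after the treatment in these same arrays, so its difference is described below without a test, and the other loci were taken because they belong to the same class.

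Transcripts were measured with Affymetrix ATH1 arrays in whole seedlings of the Columbia 0 ecotype, 7 days old, grown in multi-well plates. One group received 5 µM of a synthetic propanamide, which carries a 2,4-dichlorophenoxy group beside its carbonyl and, on its nitrogen, a phenyl ring with an isobutyrylamino and a methoxy group. The 2,4-dichlorophenoxy group also occurs in the synthetic auxin 2,4-D. The compound was given in dimethyl sulfoxide (DMSO), and the other group received DMSO alone, each for 24 h. Each group held 3 biological replicates numbered 1 to 3, every one pooled from 24 wells that had been given 5 seeds each, and both groups had the same wild-type background. By its title the study deals with auxin signalling in relation to cell death from photorespiratory hydrogen peroxide, and the one comparison of its design asks which transcripts differ between compound and solvent.

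Receptor-like cytoplasmic kinases resemble receptor kinases but have no extracellular domain, so they act inside the cell on signals that other proteins receive. Like other protein kinases they transfer phosphate from ATP to their target proteins, which changes the activity, place or partners of those targets. Class VI is 1 of the classes into which the family is sorted by sequence.

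The values are log2 expression values from RMA, a procedure that removes background, equalises the distributions of the arrays and combines the probes of each probe set into 1 value. Array medians lay between 5.75 and 5.79 and lower quartiles between 3.95 and 4.06, and values at or below that quartile are near background. Across all tested probe sets, arrays that carried the same replicate number deviated together from their group means (correlations of 0.727, 0.728 and 0.743). Results are therefore given without and, where that changes a call, with the replicate number as a block in the fit. Without the block 78 probe sets passed an adjusted p of 0.05, which was 0.343% of those tested, and with the block 865 did, or 3.8%. The difference between the 3′ and 5′ actin probe sets, a measure of RNA integrity, ranged from 2.33 to 2.77 with DMSO and from 2.47 to 2.74 with the compound. The same difference for GAPDH was 1.151, 1.028 and 1.412 in DMSO replicates 1, 2 and 3 and 0.938, 1.007 and 1.105 in the compound replicates, lower with the compound in all 3 pairs although the groups overlapped, and its part in the results was not tested.

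Among the 5 measured class VI loci of this set, AT5G65530 was 2.39-fold lower with the compound and AT2G18890 was 1.42-fold lower, while AT5G18910, AT5G35960 and AT5G57670 differed by at most 0.14 on the log2 scale. AT2G18890 passed the test with the replicate block and missed it without the block. The other 3 passed in neither fit. The median log2 fold change of the 5 was -0.13, against 0.01 over all tested probe sets. AT5G65530, chosen for its lower values, is among the 5, so this median is partly set by that choice.

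AT5G65530 stood at 5.77, 5.67 and 5.85 in DMSO replicates 1, 2 and 3, and at 4.34, 4.72 and 4.46 in compound replicates 1, 2 and 3. All 3 compound arrays lay below all 3 DMSO arrays, and the nearest values of the groups were 0.94 apart, more than the range within either group. The group means were 5.76 ± 0.09 (SD, n = 3) with DMSO and 4.51 ± 0.19 (SD, n = 3) with the compound. The log2 fold change was thus -1.26 (SE 0.12). Within replicate numbers 1, 2 and 3 the difference was -1.43, -0.94 and -1.39. The smallest of these came from number 2, where the DMSO array was the lowest of its group and the compound array the highest of its group. Without the block 51 probe sets were called lower, and 21 of these stood for a gene with a single-gene probe set. Among these 21 AT5G65530 had the 12th largest difference, between AT5G06630 at 2.93-fold and AT4G08410 at 2.28-fold lower. The rank leaves out the other probe sets called lower. These values chose the gene and are given as a description.

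AT2G18890, the member with the second largest difference, was at 5.28, 5.22 and 5.26 in DMSO replicates 1, 2 and 3 and at 4.77, 4.68 and 4.79 in the corresponding compound replicates. The groups did not overlap and were 0.43 apart at their nearest values, and each group spanned little. Its means were 5.25 ± 0.03 (SD, n = 3) with DMSO and 4.74 ± 0.06 (SD, n = 3) with the compound. Their difference on the log2 scale was -0.51 (SE 0.08). Its differences within numbers 1, 2 and 3 were nearly equal, at -0.51, -0.54 and -0.47. The adjusted p of limma was 0.0954 in the unblocked fit and 0.0143 in the blocked one. Of these 2 fits only the blocked one called AT2G18890 lower, at the same log2 fold change. With the replicate number as a random effect, a fit that called 2.16% of all probe sets and 1.21% as lower, the adjusted p was 0.00742. In the fits that left out 1 array, which break a pair, the log2 fold change stayed between -0.53 and -0.48 and the adjusted p reached 0.362. With the block and 1 whole pair left out, the adjusted p was 0.0669 without number 1, 0.0413 without number 2 and 0.11 without number 3, so the call with the block was lost without number 1 or without number 3.

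**Figure D1:**
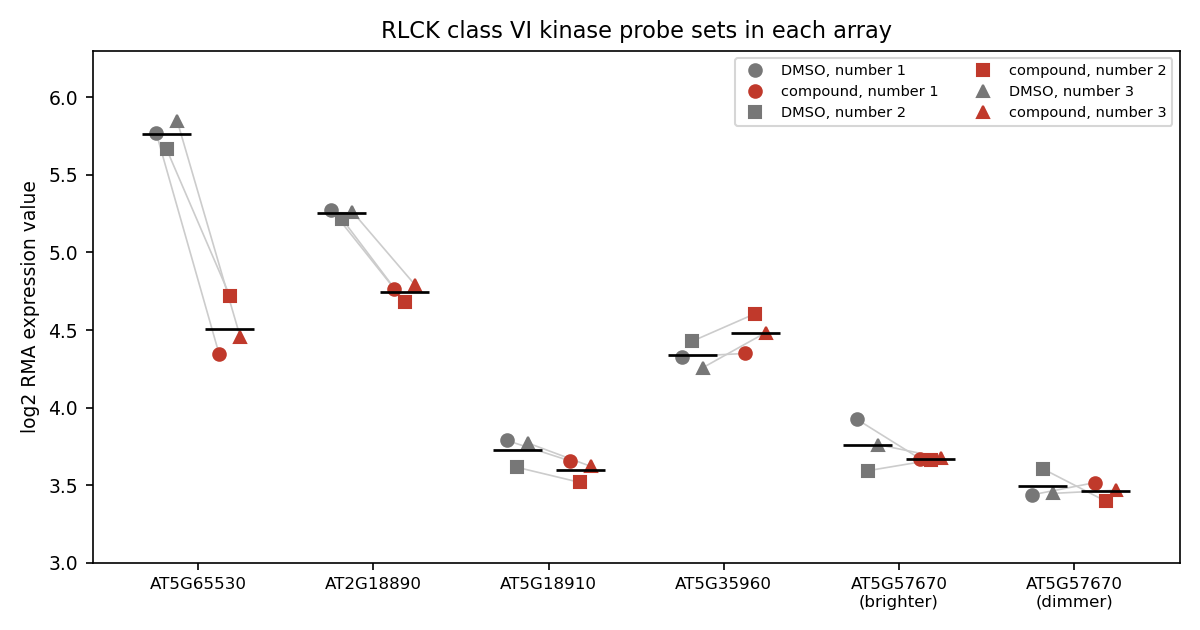
Log2 RMA expression value (vertical axis) of each probe set of the measured class VI loci (horizontal axis) in the 6 arrays; grey symbols are DMSO arrays and red symbols compound arrays, the symbol shape gives the replicate number, thin lines join arrays of the same number and black bars are group means (n = 3). The groups are apart for AT5G65530 (5.67 to 5.85 against 4.34 to 4.72) and AT2G18890 (5.22 to 5.28 against 4.68 to 4.79) and overlap for the other probe sets.

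The remaining loci overlapped between the groups. AT5G35960 read 4.33, 4.43 and 4.26 with DMSO and 4.35, 4.61 and 4.48 with the compound in replicates 1, 2 and 3. It was the one measured locus of the 5 with a higher mean with the compound, at a log2 fold change of 0.14 (SE 0.10). Its 95% interval ran from -0.10 to 0.39, and the adjusted p was 0.999 in the unblocked and 0.461 in the blocked fit (limma). The compound array was the higher one in all 3 pairs, which was also the case for 21.2% of all probe sets.

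AT5G18910 read 3.79, 3.62 and 3.77 with DMSO and 3.66, 3.52 and 3.62 with the compound. Each compound array lay below the DMSO array of its number, by 0.13, 0.10 and 0.15, but the compound array of number 1 lay above the DMSO array of number 2. The log2 fold change was -0.13 (SE 0.09, 95% interval -0.35 to 0.09), with adjusted p of 0.999 without and 0.474 with the block. A lower value in all 3 pairs was found for 16.5% of all probe sets. All 6 values lay below the lower quartile of every array, where a difference can be compressed or go unseen.

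AT5G57670 was read by a pair of probe sets, neither of which separated the groups. The brighter one read 3.92, 3.59 and 3.76 with DMSO and 3.67, 3.66 and 3.68 with the compound. Its DMSO arrays spread widely around 3 compound arrays that were close together. Its log2 fold change was -0.09 (SE 0.11, 95% interval -0.34 to 0.16), and that of the dimmer one was -0.04 (SE 0.09, 95% interval -0.25 to 0.18). The dimmer one read 3.44, 3.61 and 3.45 with DMSO and 3.52, 3.40 and 3.47 with the compound, so the pair of probe sets gave opposite orders of the treatments in numbers 1, 2 and 3. Both probe sets were below the lower quartile of every array, so these values do not show whether the gene responded.

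Of the 5 measured members, 2 had groups that did not overlap, both with the compound below DMSO, where 4.37% of all probe sets did so. Without AT5G65530, which was chosen for this pattern, the count was 1 of 4. At an adjusted p below 0.05 limma called 1 member as lower without the block, which was AT5G65530, and its call was fixed by the choice. Of the other 4 it called 0 as lower without the block, where 0.224% of all probe sets were called lower, and 1 with the block, AT2G18890, where 1.97% were. Whichever 1 of the 6 arrays was left out, the fit without the block called 0 members, and 0 to 76 probe sets in all. In these fits 2 members were at an unadjusted p below 0.05 (limma), as were 1000 to 1518 of the 22746 probe sets. AT5G65530 was 1 of the 2, which its choice favoured. No member was called higher in either fit, where 0.119% and 1.83% of all probe sets were. Of the 5, 4 had lower means with the compound, AT5G65530 among them by its choice, as did 10270 of the 22746 probe sets.

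The members also differed in how far they varied between replicate numbers. The mean of the DMSO and compound arrays of a number spanned 0.08 over the 3 numbers for AT2G18890, 0.14 for AT5G65530 and 0.18 for AT5G35960, the widest of the 5. Across the 6 arrays the values of AT2G18890 followed those of AT5G65530 with a Pearson r of 0.95, which rests on the difference between the treatment groups. Their deviations from the group means ran against each other, with an r of -0.54 over the same 6 arrays. For AT5G18910, AT5G35960 and the brighter probe set of AT5G57670 the r with AT5G65530 over the arrays was 0.63, -0.54 and 0.46. These are descriptions over 6 arrays that share 2 treatments and 3 replicate numbers.

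The members lie on chromosomes 2 (1 locus), 3 (1 locus) and 5 (5 loci). In the gene order of the TAIR10.1 assembly, 9 of the nearest 2 protein-coding genes on either side of the 5 measured members had a single-gene probe set. Limma called 0 of these 9 with or without the block. Over all probe sets it called 0.343% without and 3.8% with the block, so a count of 0 among 9 is near the general share. AT5G65520 and AT5G65540, which flank AT5G65530, were at 0.08 (SE 0.20) and -0.17 (SE 0.13). Next to AT2G18890, AT2G18900 was at 0.13 (SE 0.09).

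Class VI holds a second group of kinases, called group B here, several of which carry a domain like that of universal stress proteins ahead of the kinase. All 7 loci listed for it were measured. Without the block limma called 0 of them, with 1 at an unadjusted p below 0.05 (5.36% of all probe sets were). With the block 1 was called higher, where 1.83% of all probe sets were, and 6 did not pass. The gene called higher, AT1G77280, read 5.28, 5.05 and 4.91 with DMSO and 6.02, 5.49 and 5.64 with the compound. All compound arrays lay above all DMSO arrays, as for 5.37% of all probe sets, and the pair differences were 0.74, 0.44 and 0.73. Its log2 fold change was 0.64 (SE 0.17, adjusted p = 0.408) without the block and had an SE of 0.09 and an adjusted p of 0.0132 with it. With the block and without number 1, 2 or 3 the adjusted p of AT1G77280 was 0.069, 0.00766 and 0.126.

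AT2G16750 of group B read 6.03, 5.92 and 6.82 with DMSO and 5.87, 4.95 and 5.92 with the compound, so the groups overlapped while every compound array was below the DMSO array of its number. The pair differences were -0.16, -0.96 and -0.89, and the log2 fold change of -0.67 (SE 0.34) had an adjusted p of 0.999 without and 0.0732 with the block. Without number 1, whose pair differed least, the blocked fit called AT2G16750 as lower, with a log2 fold change of -0.93 (adjusted p = 0.0104). AT4G35030 was at -0.07 (SE 0.15). The other 4, AT1G21590, AT1G66460, AT5G37790 and AT5G63940, lay between -0.05 and 0.00. AT1G66460 read 3.36 to 3.47 over the 6 arrays, below the lower quartile of every array, so its values do not show whether it responded. Of the 4, AT5G63940 was steady, at 6.02 ± 0.03 (SD, n = 3) with DMSO and 6.01 ± 0.05 (SD, n = 3) with the compound. AT1G21590 by contrast differed between replicate numbers, whose means spanned 0.74, and little between treatments (6.47 ± 0.28 and 6.44 ± 0.49, SD, n = 3). The median of the 7 was -0.03. Whether group B differed from the 5 members was not tested, since AT5G65530 had been chosen for its difference.

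**Figure D2:**
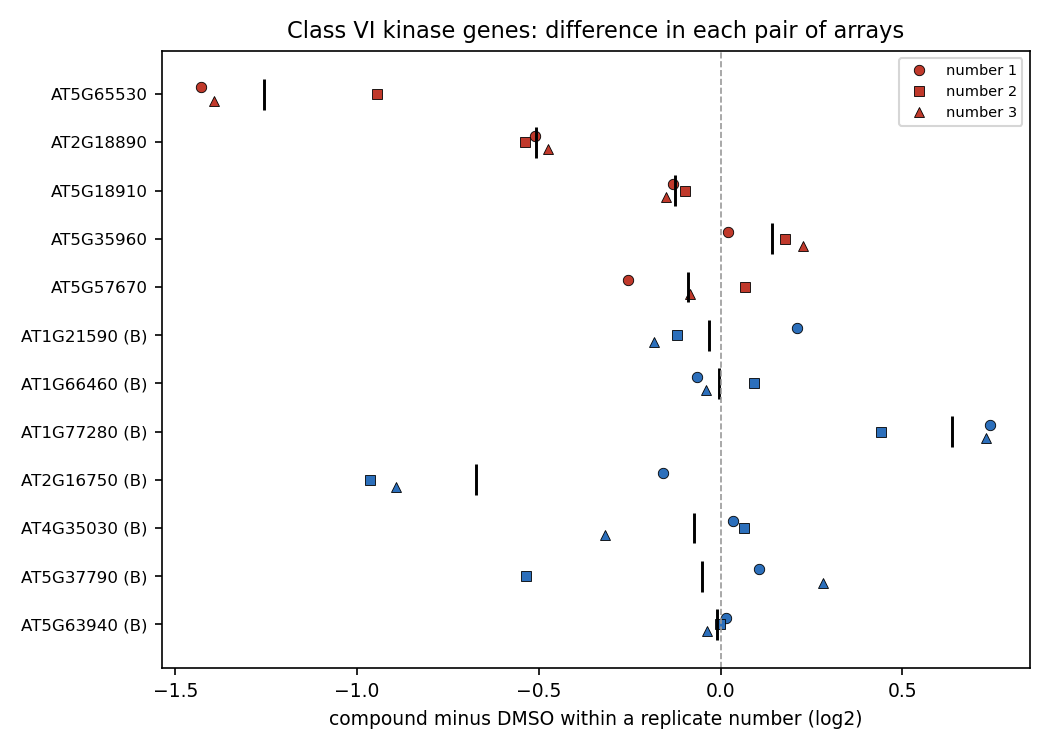
Compound minus DMSO within each replicate number on the log2 scale (horizontal axis) for the measured class VI genes (vertical axis), with group B marked (B); symbol shapes give the replicate number and black bars the mean of the 3 differences. AT5G65530 and AT2G18890 are below 0 in all 3 pairs, by 0.94 or more and 0.47 or more, AT1G77280 is above 0 in all 3, and the 3 pairs of AT5G37790 lie between -0.54 and 0.28.

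The intervals of the fit without the block bound what could have been missed on the RMA scale. For AT5G18910, AT5G35960 and AT5G57670 they spanned no more than -0.35 to 0.39. None of these intervals reached the size of the estimated log2 fold change of AT2G18890 in either direction. For AT2G16750 the interval ran from -1.49 to 0.14 and for AT1G21590 from -0.67 to 0.60, so a change of the size seen for AT2G18890 is within both. With the block the interval of AT2G16750 ran from -1.04 to -0.30, which still holds a fall of that size. The blocked interval of AT1G21590, which varied between replicate numbers, ran from -0.26 to 0.20 and holds no change of that size. For AT5G18910 and AT5G57670 the RMA scale compresses differences near background, so their intervals do not bound the change of the transcript itself.

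**Figure D3:**
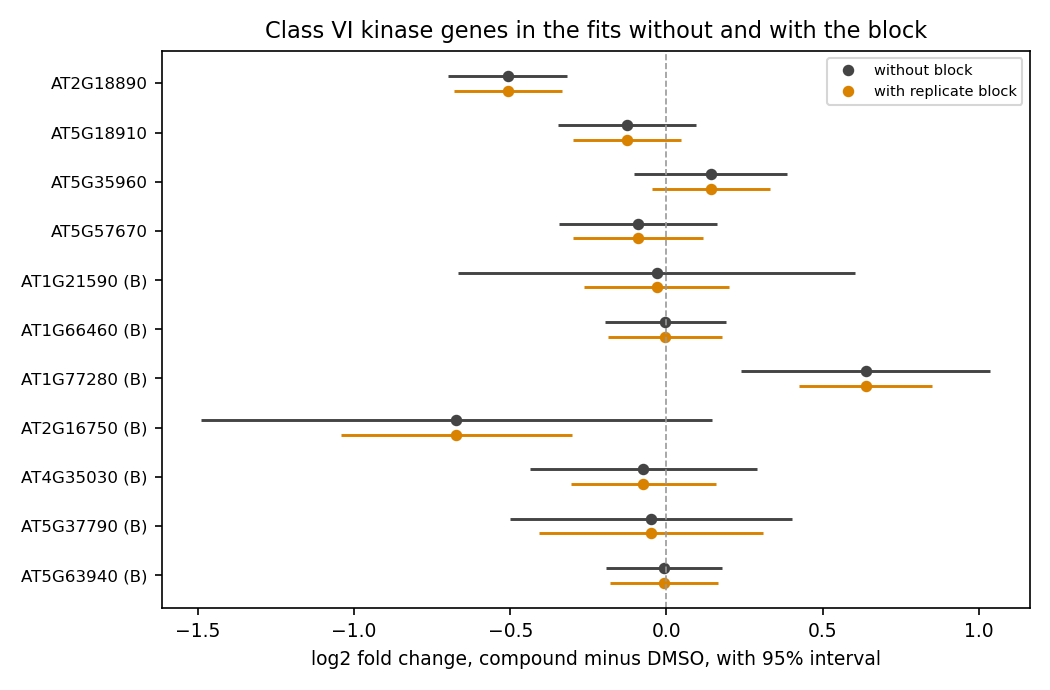
Log2 fold change, compound minus DMSO, with its 95% interval (horizontal axis) for the class VI genes other than AT5G65530 (vertical axis), without the block (grey) and with the replicate number as a block (orange), 3 arrays per group. AT2G18890 lies wholly below 0 and AT1G77280 wholly above 0 in both fits, and the other intervals span 0 except that of AT2G16750 with the block.

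A further list held 18 other receptor-like cytoplasmic kinases, of classes that act mainly in immune and hormone signalling. Of these, 6 were measured, with log2 fold changes between -0.03 and 0.28. The other 12 were not read, so the 6 do not stand for these classes. Limma called 0 with or without the block, where 0.343% and 3.8% of all probe sets were called. At an unadjusted p below 0.05 (limma) there were 0 without the block and 1 with it, as were 1220 and 3645 of the 22746 probe sets. The interval of AT3G09830 without the block was wide, from -0.74 to 1.02. The 3 with the smallest p were AT5G47070 at 0.28 (SE 0.19), AT5G35580 at 0.14 (SE 0.14) and AT5G18610 at 0.04 (SE 0.09). BIK1, an immune signalling kinase that works with pattern receptors, was at 0.02 (SE 0.15). The median of the 6 was 0.09.

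The 3 root hair markers with a single-gene probe set were lower in the same arrays in which AT5G65530 and AT2G18890 were lower. Of 20 listed markers these were the expansin genes EXPA7 and EXPA18 and the wall-modifying gene XTH26. All 3 were called lower without the block, where 0.224% of all probe sets were. The other 17 were not read here, so the 3 do not stand for root hair genes as a whole. EXPA7 changed by -2.10 on the log2 scale (SE 0.26; limma, adjusted p = 0.042), EXPA18 by -1.81 (SE 0.20; adjusted p = 0.0266) and XTH26 by -2.67 (SE 0.30; adjusted p = 0.0318). None of the 3 passed without DMSO replicate 3 or without any 1 compound array, and 1 passed without DMSO replicate 2. With the block all 3 passed, where 1.97% of all probe sets were called lower. These 3 markers were known from earlier results of these arrays and add no independent support. On the linear scale their summed value ranged from 299 to 580 in the DMSO arrays and from 99.4 to 105 in the compound arrays, and RMA gives no value of 0. The one marker of other root cells out of 17 with a single-gene probe set, PYK10, was at -0.10 (SE 0.12). The one of green tissue out of 16, RCA, which encodes Rubisco activase, was at -0.04 (SE 0.09). Whole seedlings were sampled, so fewer cells of a type and less RNA per cell cannot be told apart, and the part of root hair cells in the kinase results was not tested. EXPA7, EXPA18 and XTH26 had their smallest difference in number 1 (-1.38, -1.41 and -2.12) and their largest in number 2 (-2.62, -2.26 and -2.99). Number 2 held the smallest difference of AT5G65530 (-0.94, against -1.43 and -1.39 in numbers 1 and 3) and the largest of AT2G18890 (-0.54, against -0.51 and -0.47).

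**Figure D4:**
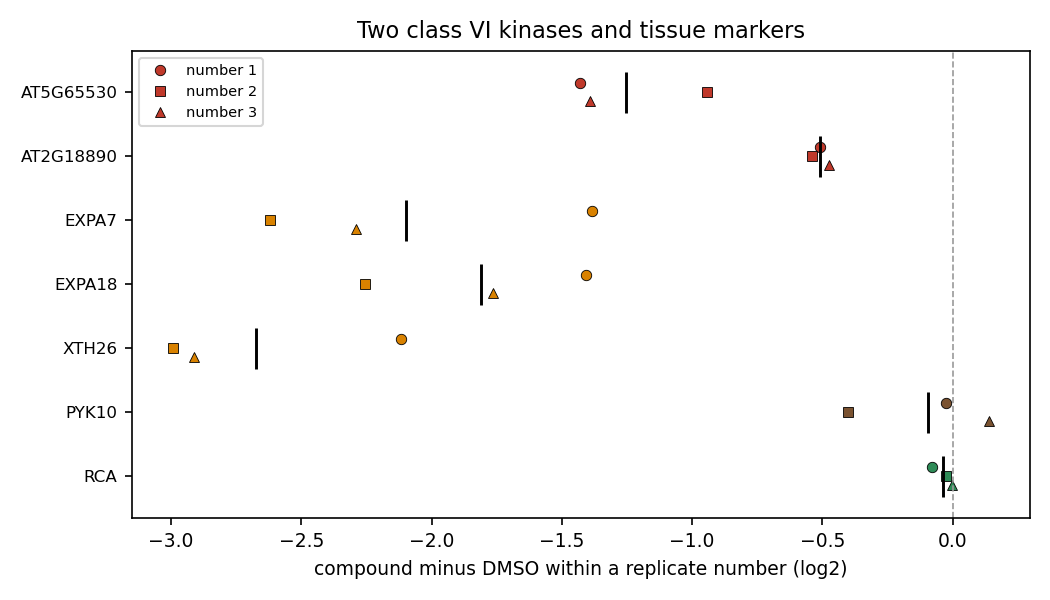
Compound minus DMSO within each replicate number on the log2 scale (horizontal axis) for AT5G65530 and AT2G18890 (red), root hair markers (orange), the other root marker PYK10 (brown) and the green tissue marker RCA (green); symbol shapes give the replicate number and black bars the mean. Root hair markers lie between -2.99 and -1.38 and AT5G65530 between -1.43 and -0.94.

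When the 5 measured members were set aside, 13328 genes were left for comparison, of which the 5 whose values across the 6 arrays were most like those of AT5G65530, by Pearson r, were AT4G13580 (0.981), AT1G28135 (0.980), AT5G06630 (0.977), AT3G57320 (0.976) and AT5G29060 (0.973). All 5 were lower in every compound array than in every DMSO array, as were 4.37% of all probe sets. The 5 were picked for likeness to a gene whose groups were apart, so this largely follows from the choice. AT4G13580, which encodes a dirigent-like protein, was lower by 3.92-fold, and AT5G06630, for an extensin-like wall protein, by 2.93-fold. AT5G06630 was read by an _x_at probe set that the annotation assigns to it alone. Whether that probe set also reads related transcripts was not tested. AT3G57320 was 1.48-fold lower, with values of 6.08, 6.21 and 6.11 with DMSO and 5.50, 5.63 and 5.57 with the compound. AT1G28135 and AT5G29060 had means of 3.14 to 3.39 in both groups, below the lower quartile of all arrays, so their likeness rests on differences of 0.15 and 0.25 near background. The deviations of these 5 genes from their group means had an r of 0.19 to 0.75 with those of AT5G65530 over the 6 arrays.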

How the data were processed

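The deposited values are log2 expression values per probe set, for which the submitters' processing notes name RMA as the authors' method. The software, its version and the probe definition are not given in the sources used here. Of the 22810 probe sets in the table, 64 controls were dropped and 22746 were tested. Gene names were taken from the platform annotation and brought up to date by gene number with NCBI's TAIR10.1 gene table, which left 13513 probe sets with 1 gene, 503 with several and 8730 without a name here. A gene is called measured here where it had a single-gene probe set by this annotation. Other genes may still be read by a probe set with several genes or without a name. Where several single-gene probe sets read 1 gene, the brightest by mean over the 6 arrays stood for it. No coordinates or sequences are given. The file holds no detection calls, and the number of arrays limits the precision.

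Samples were grouped and numbered by their titles. Limma 3.58.1 (R 4.3.3) was fitted to all 6 arrays with treatment as its sole term, two-sided, with Benjamini-Hochberg adjustment over the 22746 probe sets. Every adjusted p in the text is limma's from this fit or a named variant of it, log2 differences are compound minus DMSO, and intervals are 95% intervals of the moderated fit. The labels call the samples biological replicates without saying what arrays of a number shared. Pairing was read from the titles and from deviations from group means across probe sets, which correlated at 0.727 to 0.743 between same-numbered arrays and at -0.426 to -0.275 between others. Deviations from a group mean sum to 0, so positive values for same-numbered arrays push the others below 0. The negative values are therefore not separate evidence of pairing. All 3 pairs exceeded 0.1, the limit for treating the numbers as pairs. The fit was also run on simulated data, with a check that mean estimates of the added changes lay near the values added. That check does not cover how many changes were called or how many calls were false.

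The members and the 5 gene lists (78 loci, 18 measured) were chosen with earlier results of these data known, and list membership was written from general knowledge. Named were all members, list genes called with or without the block, the 3 of each list with the smallest p, and the 5 genes most like AT5G65530. Other genes in the text were picked after their values were seen. Further lists, of 1 signalling pathway, are not reported here. Alternatives were the replicate number as a fixed or random block, leaving out each array or each pair, median centring, filters on a mean of at least 4 or 5, an intensity trend with robust variance, and the second probe set of AT5G57670.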

Additional observations from a re-analysis of the deposited data

How the results depend on the processing

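The log2 fold change of AT5G65530 ranged from -1.41, with the block and without replicate number 2, to -1.17 over its alternatives. AT2G18890 ranged from -0.53 to -0.48 and, besides the fit with the replicate block (-0.51, adjusted p = 0.0143), passed with the random block (-0.51, adjusted p = 0.00742) and with the block without number 2 (-0.49, adjusted p = 0.0413). It could not be fitted at a mean of at least 5, which its mean just misses. AT5G18910, AT5G35960 and both probe sets of AT5G57670 passed in no alternative. The total of 78 called probe sets became 865 with the replicate block, 491 with the random block, and 516, 743 and 205 with the block and without replicate number 1, 2 and 3. Leaving out 1 array gave 0 to 76: dropping DMSO replicate 2 left 40, dropping DMSO replicate 3 left 1, and dropping compound replicate 1, 2 or 3 left 0, with 1022, 1049 and 1047 at an unadjusted p below 0.05. The members called, 1 without the block, were 2 with the replicate block, the random block and the block without number 2. They were 0 whichever array was left out (limma, 2 at an unadjusted p below 0.05 each time). These counts include AT5G65530, which was chosen for its lower values. Of group B the count of 0 became 1 with the replicate block, the random block and the block without number 2 (AT1G77280, up), and 1 (AT2G16750, down) with the block without number 1. Of the 3 root hair markers limma called 0 to 3 when 1 array was dropped. Dropping DMSO replicate 2 left 1, and dropping DMSO replicate 3 or a compound array left 0, where all 3 stayed below an unadjusted p of 0.05. Depth does not apply to arrays. Signal near background limits AT5G18910, AT5G57670 and, in group B, AT1G66460.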
